A study of Mus musculus with 4 samples.

Results

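Cluster 13 is 1 of 23 numbered clusters into which the authors sorted nuclei of mouse kidney cortex. Its nuclei are those the authors gave that number, and the cluster was chosen with earlier results of these data known. It held 679 of 26144 nuclei (2.60%), with 160 in the library labelled Klf4flox/flox, 201 in that labelled Klf4deltaEC, 234 in that labelled Nos3-/- and 84 in that labelled Klf4deltaECNos3-/-. These nuclei numbers were inferred from the values. The working name of the cluster, Gpc6-high and stromal, rests on the markers Gpc6, Dgkb, Dmd and Adamtsl1. Each nucleus's RNA was counted by droplet single-nucleus sequencing with unique molecular identifiers (UMIs), and a level is the mean over the nuclei of a cluster and library of UMIs per 10000 UMIs.

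Each genotype was measured in 1 library. Klf4flox/flox mice carry a Klf4 gene flanked by recombination sites and served as the control. In Klf4deltaEC mice Klf4 is deleted in endothelial cells, Nos3-/- mice lack Nos3 in every cell, and Klf4deltaECNos3-/- mice combine both. All are labelled C57BL/6J. The sources used here do not give the driver of the endothelial deletion, the age and sex of the mice or the number of mice per library. Klf4 encodes a transcription factor with zinc fingers, and Nos3 the nitric oxide synthase of endothelium. Values of the 4 libraries are given throughout in the order Klf4flox/flox, Klf4deltaEC, Nos3-/- and Klf4deltaECNos3-/-.

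The stroma of the kidney cortex is the tissue between tubules and around vessels and glomeruli. Its fibroblasts lay down collagen and other matrix, its pericytes wrap capillaries, vascular smooth muscle sets the calibre of arterioles, and mesangial cells hold the glomerular tuft together. Nitric oxide made by endothelial Nos3 diffuses into these cells, where it activates soluble guanylate cyclase; the cyclic GMP formed acts on cGMP-dependent protein kinase and relaxes contractile cells.

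With 1 library per genotype no difference between genotypes could be tested. A 95% interval beside a level is an exact Poisson interval on inferred UMIs, and one beside a log2 ratio is a Clopper-Pearson interval. Both cover counting error only, not variation between mice or between nuclei. The median inferred UMI total per nucleus of cluster 13 was 4288, 4266, 2405 and 7098. A level worth 3 counts was 0.0883, 0.0531, 0.0641 and 0.137, so lower levels are not distinguishable from 0 at this depth. The summed level of the 13 mitochondrially encoded genes in cluster 13 was 92.8, 70.7, 31.2 and 63.0, lowest in the library labelled Nos3-/-. Nos3 in cluster 13 was at 0.0621, 0.0496, 0.0971 and 0.135, all near the level of 3 counts. In cluster 10, the cluster with the highest endothelial marker levels, Nos3 was at 1.26, 0.930, 1.52 and 2.07 and Klf4 at 0.621, 0.779, 0.445 and 0.825. The labelled deletions were therefore not visible in these levels. Without knowing where each gene is cut, these levels check no label, and libraries are named below by their labels.

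All 4 markers of the working name were higher in cluster 13 than in any of the other clusters. Gpc6 (chromosome 14, 116925315 to 117976544, plus strand, GRCm38), a cell-surface heparan sulphate proteoglycan, was at 14.1 (95% interval 12.9 to 15.4), 12.3 (11.4 to 13.2), 13.1 (12.1 to 14.2) and 14.1 (12.6 to 15.8), against 3.08 in cluster 18, the next highest. Dmd, which encodes dystrophin, was at 7.82, 6.27, 5.87 and 6.70, and Dgkb, a diacylglycerol kinase, at 4.52, 4.78, 4.25 and 6.46. These 3 genes differed by less than 2-fold between libraries. Adamtsl1, a secreted matrix glycoprotein related to the ADAMTS proteases, was at 6.79, 4.03, 3.32 and 22.3, and its high value in the library labelled Klf4deltaECNos3-/- is described further on.

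Markers of 4 stromal cell types were all highest in cluster 13, and no single type could be named for it. Each list was summarised by its scaled level, the mean over its markers of their log2 level in SD units over the clusters. The scaled level was 3.35 for pericyte markers, 2.98 for vascular smooth muscle, 2.75 for fibroblasts and 2.61 for mesangial cells. Of the pericyte markers 9 of 9 measured were highest in cluster 13, of the fibroblast markers 6 of 9, of the smooth muscle markers 5 of 8 and of the mesangial markers 5 of 7. In the same order, only 4, 3, 6 and 4 markers reached a mean level of 0.5 there, so some ranked highest at low levels. This order was not stable. Without scaling, vascular smooth muscle led at 2.31, ahead of mesangial cells at 1.95 and pericytes at 1.71. With each library taken alone, smooth muscle led in those labelled Klf4flox/flox (3.73), Nos3-/- (3.53) and Klf4deltaECNos3-/- (3.79), and pericytes led in that labelled Klf4deltaEC (3.15). Smooth muscle also led without the library labelled Klf4deltaEC. Gene by gene the mixture was plain. Pdgfrb, the receptor that marks mural cells, was at 1.25, 1.24, 1.46 and 0.980. Pdgfra, the receptor that marks fibroblasts, was at 2.19, 1.75, 0.864 and 0.678. Itga8, an integrin of mesangial cells, was at 2.00, 1.91, 1.77 and 2.76, and Myh11, the myosin heavy chain of smooth muscle, at 1.24, 1.94, 2.31 and 3.30. Ren1 (renin), of the juxtaglomerular cells, was at 0.395, 0.522, 0.0578 and 0.0166. The juxtaglomerular list had a scaled level of 3.63, above the 4 lists given, and both its genes were highest in cluster 13. It has only 2 genes, under the 3 needed for a name, and 0 of them reached a mean level of 0.5. In an average over nuclei, fewer nuclei of a type and less RNA per nucleus cannot be told apart, so none of the differences below separates a change in cell mix from a change in expression.

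**Figure D1:**
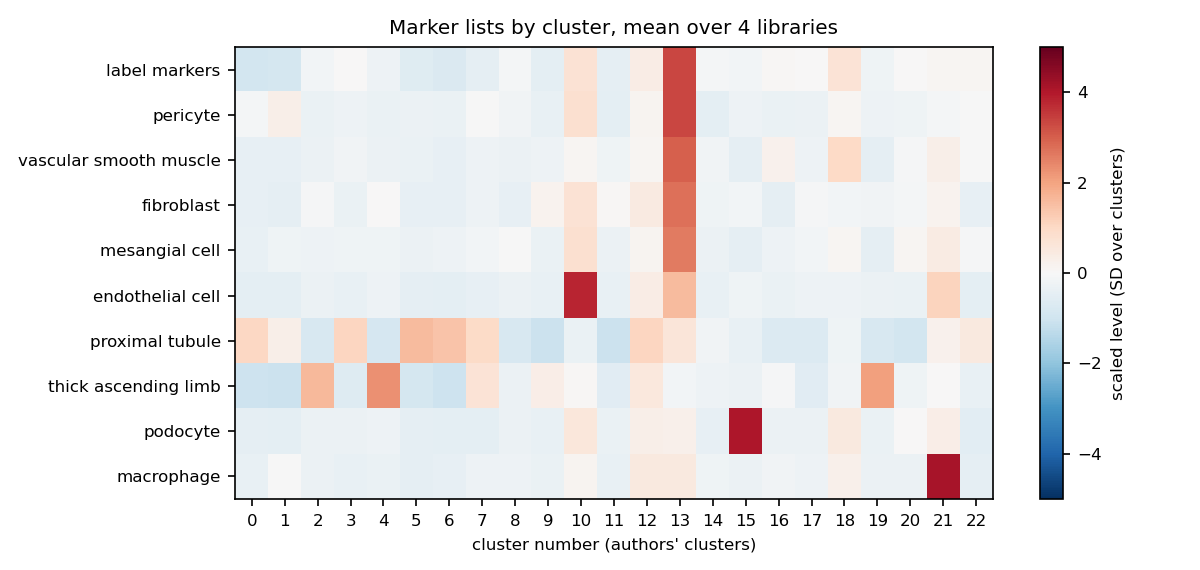
Scaled level of 10 marker lists (y axis) in each of the authors' 23 clusters (x axis), as a mean over the 4 libraries, with colour giving SD units over clusters. The pericyte, vascular smooth muscle, fibroblast and mesangial lists all peak in cluster 13, at 3.35, 2.98, 2.75 and 2.61, and the endothelial list peaks in cluster 10 with cluster 13 second at 1.57.

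RNA of other cell types was present as well. The summed level of 8 proximal tubule markers was 62.3, 58.1, 63.4 and 69.4 in cluster 13, against 25.5 in cluster 10 and 175 in cluster 5, the highest. The 10 endothelial markers summed to 13.5, 11.6, 11.7 and 12.6, against 90.6 in cluster 10. None of these 18 markers was highest in cluster 13. The 3 distal convoluted tubule markers summed to 1.62, 3.49, 5.01 and 0.470, which differed between libraries more than the other 2 lists did. Podocyte markers summed to 2.06, 1.49, 1.80 and 1.02. The part that RNA of these types played in the differences between libraries was not tested.

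The nuclei of cluster 13 also differed in depth more than those of most clusters. The 10th and 90th percentiles of the inferred UMI totals were 926 and 14788, 1602 and 12793, 1168 and 7940, and 1133 and 26294. The 90th percentile was 16, 7.99, 6.80 and 23.2 times the 10th. In 3 of the 4 libraries this ratio was the highest of the 23 clusters, and in that labelled Klf4deltaEC cluster 21 was higher at 8.90. Because every nucleus has the same weight in a level, shallow nuclei add most to its counting error.

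**Figure D2:**
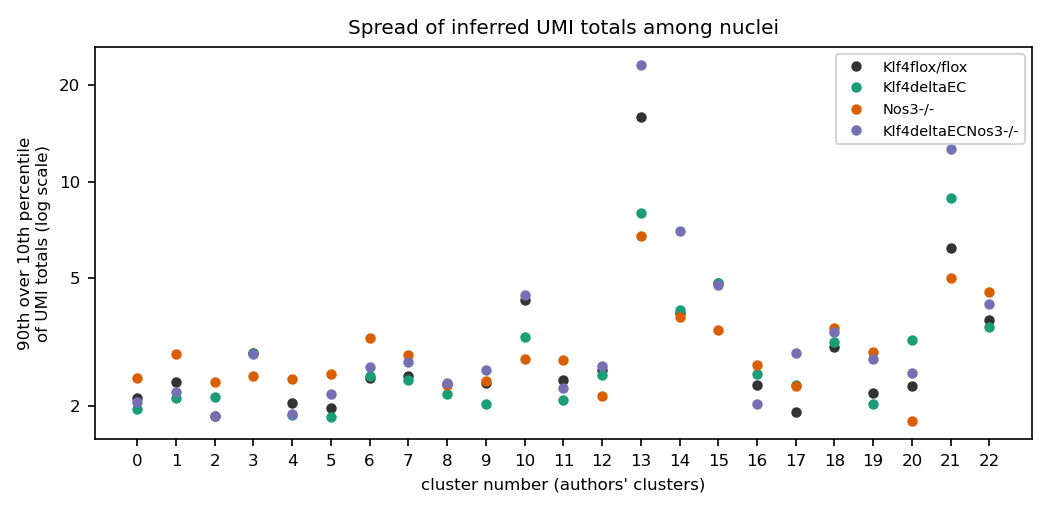
Ratio of the 90th to the 10th percentile of inferred UMI totals among nuclei (y axis, log scale) for each cluster (x axis), with 1 point per library. Cluster 13 reaches 16, 7.99, 6.80 and 23.2, and outside clusters 13, 14 and 21 every point lies under 5.

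The genes that led cluster 13 by most included contractile genes, matrix genes, and ion channels and transmitter receptors, grouped here by hand with their levels in view. Since the cluster was made from these nuclei, this is a description and not a test. Of 2284 genes at a level of 1 or more in cluster 13, 143 were highest there and 65 exceeded the next cluster by at least 2-fold. Among the 25 that led by most, the contractile genes were Myh11, Acta2 (smooth muscle alpha-actin) and Synpo2, an actin-binding protein. Acta2 was at 0.711, 0.382, 1.02 and 2.67, and Synpo2 at 1.17, 1.39, 1.16 and 1.54. Cacna1c, the pore of the L-type calcium channel through which smooth muscle takes up calcium, was at 6.26, 5.84, 5.80 and 5.47, with overlapping intervals in all 4 libraries. Its next cluster, cluster 10, was at 0.382.

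Other leading genes encode components of the matrix and its receptors. Lama2, the alpha-2 chain of laminin, was at 8.12 (7.19 to 9.13), 6.76 (6.10 to 7.48), 4.92 (4.31 to 5.60) and 3.44 (2.71 to 4.31). It was highest in the control library and lowest in that labelled Klf4deltaECNos3-/-, with no overlap between those intervals. Col6a3, a chain of collagen VI, was at 1.05, 1.94, 1.38 and 0.791. Ddr2, a collagen-binding receptor tyrosine kinase, was at 1.43, 1.12, 1.23 and 0.673, and Egflam, a matrix ligand of dystroglycan, at 1.21, 1.98, 1.68 and 0.505. Outside these groups, Csmd1, a large membrane protein with complement-control domains, was at 13.2 (12 to 14.5), 7.36 (6.67 to 8.10), 9.37 (8.51 to 10.3) and 10.1 (8.85 to 11.6). It was highest in the control library.

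Potassium channels and glutamate and GABA receptors, best known from neurons, also led. Kcnt2 was at 3.57, 5.04, 2.75 and 3.41, Kcnab1 at 1.60, 1.65, 2.20 and 3.46, and Kcnd3 at 4.87, 7.09, 4.54 and 2.84. Grm7, a metabotropic glutamate receptor, was at 9.13, 10.6, 4.65 and 6.74, against 0.502 in the next cluster. Gria4, a subunit of AMPA receptors, was at 2.65, 1.93, 3.01 and 1.09, and Gabra3, a subunit of GABA-A receptors, at 1.40, 1.61, 1.18 and 0.60. Each of these genes was above its next cluster in all 4 libraries.

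**Figure D3:**
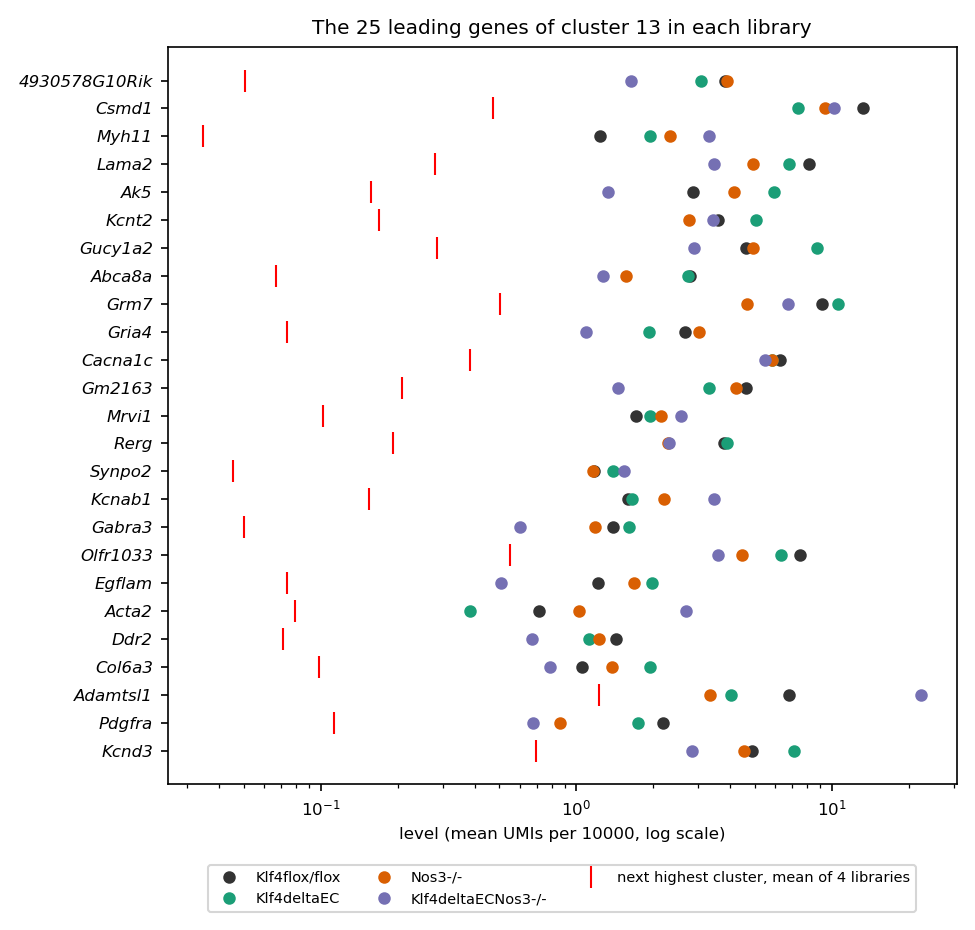
Level in cluster 13 (x axis, mean UMIs per 10000, log scale) of the 25 genes that led it by most, with 1 point per library and a red bar for the next highest cluster. Every point lies to the right of its bar, and the point of the library labelled Klf4deltaECNos3-/- is the highest of the 4 for Adamtsl1 at 22.3 and the lowest of the 4 for 4930578G10Rik at 1.64.

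Profiles were compared across the 7883 genes whose mean level reached 0.5 in any cluster. The mean profile of cluster 13 was most like that of cluster 10 (Pearson r = 0.838), then of clusters 18 (0.819) and 7 (0.817). These are correlations across genes, which are not independent replicates, and the clusters share the same 4 libraries.

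The library labelled Klf4deltaEC was first set against the control. Stimulus-induced transcription factors, the adhesion protein vinculin and the growth factor Hgf were higher in that library, and several neuronal adhesion and matrix genes were lower. A gene entered a comparison when the higher library reached 0.5, and was counted when the 2 libraries differed by at least 2-fold, with 0.1 added to each level. Of 4532 genes, 86 were higher (1.90%) and 98 lower (2.16%), together 4.06%. The balance turned to 26 higher and 9 lower with 0.5 added in place of 0.1, and to 22 and 11 for genes reaching 2. Ratios in this and the other comparisons with the control share that library.

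Fosb (chromosome 7, 19302696 to 19310051, minus strand, GRCm38), a subunit of the AP-1 transcription factor, differed by most. Its levels were 0.372 (0.196 to 0.641), 4.55 (4.01 to 5.14), 0.255 (0.131 to 0.446) and 0.0455 (0.00115 to 0.254), a log2 ratio of 3.30 (2.80 to 4.55) over the control. It was high in the library labelled Klf4deltaEC alone. The median log2 ratio of Fosb over 19 other clusters was 0.78, and cluster 20, the next highest, was at 0.337, 1.72, 0 and 0. Cluster 20 had only 12 nuclei in the library labelled Nos3-/-, so its 0 there says little. Nr4a3, an orphan nuclear receptor induced by the same stimuli, was at 0.194, 1.08, 0.133 and 0.0209, and Atf3, a stress-induced transcription factor, at 0.020, 0.505, 0.0899 and 0.00976. In the library labelled Klf4deltaEC, Atf3 was highest in clusters 20 and 18, at 1.22 and 0.809, against 0.0840 and 0.0183 in the control. Nr4a3 was next highest there in clusters 20 and 21, at 0.905 and 0.788, against 0.224 and 0.257. Of the 15 immediate early genes on the list, 9 entered and all 9 lay above 0 with a median log2 ratio of 0.81, against 0.40 in the other clusters and −0.01 over all genes in cluster 13. Fos, Fosb and Atf3 passed 2-fold. Klf4 itself is induced by such stimuli in many cells. It was at 0.213 (0.0870 to 0.433), 0.965 (0.726 to 1.26), 0.0596 (0.0113 to 0.181) and 0.0759 (0.00672 to 0.305), highest in the library labelled for its endothelial deletion.

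Vcl (chromosome 14, 20929398 to 21033676, plus strand), which encodes vinculin and links integrins to actin at adhesion sites, was at 3.46 (2.86 to 4.14), 13.9 (13 to 14.9), 4.30 (3.73 to 4.94) and 3.78 (3.01 to 4.69). The log2 ratio over the control was 1.98 (1.73 to 2.30), against a median of 0.25 in the other clusters. The other 3 libraries overlapped. In clusters 20, 18 and 10, where Vcl was next highest, it was also higher in the library labelled Klf4deltaEC. Levels there were 7.47, 5.29 and 3.79, against 4.41, 2.55 and 2.40 in the control. Hgf, hepatocyte growth factor, was at 0.608 (0.375 to 0.933), 2.01 (1.65 to 2.41), 0.408 (0.246 to 0.636) and 0.0998 (0.0139 to 0.343), a log2 ratio of 1.57 over the control. Des, the intermediate filament desmin, was at 0.441, 0.982, 0.159 and 0.0826. Rasgef1b, a Ras-family exchange factor, was at 0.682, 3.46, 1.11 and 1.67, and Arl13b, a GTPase of the primary cilium, at 0.469, 2.05, 0.260 and 0.223.

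The promoter windows of Vcl and Fosb are shown because these genes stood out in the library labelled Klf4deltaEC. Immediate early and cytoskeletal genes are textbook targets of serum response factor and CREB, whose part here was not tested. Each window is the 250 bases before the RefSeq start (GRCm38.p6), on the gene's strand, 5′ to 3′. The motifs searched on both strands were the CArG box bound by serum response factor, the cAMP response element, its half-site and the AP-1 site. Their letters were CCWWWWWWGG (W for A or T), TGACGTCA, TGACG and TGANTCA. Every full element also holds the half-site. Capitals mark the match.
Vcl, chr14:20929148-20929397, plus strand: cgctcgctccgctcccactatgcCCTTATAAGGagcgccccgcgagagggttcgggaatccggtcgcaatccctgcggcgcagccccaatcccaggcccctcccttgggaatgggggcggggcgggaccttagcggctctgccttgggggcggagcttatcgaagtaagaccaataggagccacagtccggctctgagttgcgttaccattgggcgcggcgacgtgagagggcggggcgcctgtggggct
Fosb, chr7:19310046-19310295, minus strand: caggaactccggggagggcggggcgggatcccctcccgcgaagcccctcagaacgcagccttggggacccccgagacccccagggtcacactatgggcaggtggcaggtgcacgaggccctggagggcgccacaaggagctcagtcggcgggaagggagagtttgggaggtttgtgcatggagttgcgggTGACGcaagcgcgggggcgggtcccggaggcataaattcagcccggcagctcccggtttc
The Vcl window held a CArG box that begins 227 bases before the start, and the Fosb window a half-site that begins 60 bases before it. Of 32851 promoters in the table, 1.47% held a CArG box, 1.55% the full element, 17.8% the half-site and 6.75% the AP-1 site. Of the 12 immediate early genes with a promoter there, 1 held a CArG box, 2 the full element, 7 the half-site and 0 the AP-1 site. Of the 6 genes furthest above all others in the library labelled Klf4deltaEC, 5 had a promoter there. Among these 5, 1 held a CArG box, 3 the half-site and 0 the full element or the AP-1 site. Of the 4 smooth muscle markers with a promoter there, 0 held an exact match to any of these motifs. The Acta2 window holds ccctatatgg and ccttgtttgg, each 1 letter off the CArG form searched, and these were not counted. A match is a run of letters and not a shown binding site, and its absence says only that these letters are not in this window.

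No gene of the nitric oxide and cGMP pathway was higher in the library labelled Klf4deltaEC by 2-fold. Of 16 genes, 8 entered, 7 lay above 0 and 1 below, with a median log2 ratio of 0.24 against 0.00 in the other clusters. Only Prkg2, the type II cGMP-dependent kinase, passed 2-fold, at 0.599, 0.0840, 0.341 and 0.641, lower in the library labelled Klf4deltaEC. Gucy1a2, a subunit of soluble guanylate cyclase, was at 4.61 (3.92 to 5.39), 8.75 (7.99 to 9.56), 4.91 (4.29 to 5.58) and 2.88 (2.21 to 3.68). Prkg1, the type I kinase of smooth muscle, was at 27.2, 33.6, 27.8 and 21.7, and Pde3a, a phosphodiesterase inhibited by cGMP, at 11.3, 16.1, 8.75 and 7.26. For Gucy1a2, Prkg1 and Pde3a the library labelled Klf4deltaEC was the highest and that labelled Klf4deltaECNos3-/- the lowest. Other subunits of the cyclase, Gucy1a1 and Gucy1b1, were at 1.5, 1.58, 1.47 and 0.803, and at 0.575, 0.714, 0.478 and 0.306.

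Lower in the library labelled Klf4deltaEC were Opcml, a neuronal adhesion protein (0.532, 0.0141, 0.102 and 0.117), Ltbp4, a latent TGF-beta binding protein (1.03, 0.111, 0.525 and 0.315), and Spon1, the matrix protein F-spondin. Spon1 was at 4.16 (3.50 to 4.90), 1.22 (0.949 to 1.54), 0.488 (0.309 to 0.733) and 1.97 (1.42 to 2.65), highest in the control library. Of 24 genes for neuronal adhesion and guidance, 18 entered and 15 of them lay below 0, with a median of −0.17. Sema3a and Opcml passed 2-fold.

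The library labelled Nos3-/- differed from the control mainly in the lower direction. Of 4554 genes, 82 were higher (1.80%) and 227 lower (4.98%), together 6.79%. Much of this was shared with the rest of the tissue. Of these 309 genes, 140 moved in the same direction by at least 0.5 on the log2 scale in the median of the other clusters, against 22 of 184 for the library labelled Klf4deltaEC. Mitochondrially encoded genes were part of it, with 9 of the 10 that entered lower by at least 2-fold and a median of −1.53, against −1.20 elsewhere. Kap, a proximal tubule protein, was at 36.1, 36.6, 7.53 and 30.2, and Ubb (ubiquitin) at 1.41, 1.55, 0.177 and 2.26. The log2 ratios of Kap and Ubb in the other clusters were −2.04 and −1.88. Epo, which encodes erythropoietin and is made by interstitial fibroblasts, was at 1.01, 0.859, 0.215 and 0.777. It was no marker of cluster 13, which ranked 19th of the clusters for it.

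Of the 9 fibroblast markers measured, 4 entered, 3 lay below 0 in the library labelled Nos3-/- and Pdgfra and Dcn passed 2-fold lower. Of the 14 collagen chains that entered, 6 lay above 0 and 8 below, and none passed 2-fold (median −0.11). Of 15 matrix glycoproteins, 12 lay below 0 with a median of −0.23 against 0.03 elsewhere, and Dcn alone passed 2-fold. Of 14 matrix remodelling genes, 6 lay above 0 and 8 below. Adamts6, Adamts9 and Adamtsl1 of that list were lower by at least 2-fold. Pdgfra had a log2 ratio of −1.25 (−1.93 to −0.77), against 0.03 elsewhere, and Dcn (decorin, a collagen-binding proteoglycan) was at 0.631, 0.145, 0.165 and 0.541. C7, a complement component of the terminal pathway, was at 1.20, 1.03, 0.413 and 0.567, and Cxcl12, a stromal chemokine, at 0.925, 0.683, 0.257 and 0.616. Of 19 complement and cytokine genes, 7 entered, 6 lay below 0, C7 and Cxcl12 passed 2-fold lower and Il34 2-fold higher. Adamts9, a matrix protease, was at 6.66 (5.82 to 7.59), 4.96 (4.4 to 5.58), 2.50 (2.06 to 2.99) and 2.48 (1.86 to 3.23). Spon1 had the lowest ratio of all genes, −2.86 (−3.80 to −2.45), against −0.26 elsewhere. Its interval in the library labelled Nos3-/- did not overlap that of any other library.

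Smooth muscle markers lay on the other side. All 6 of the 8 that entered were above 0 in the library labelled Nos3-/-, with a median log2 ratio of 0.61 against 0.00 in the other clusters and 0.05 over all genes in cluster 13, though none passed 2-fold. Tgfb2, a ligand of the TGF-beta pathway, was at 0.105, 0.434, 0.552 and 0.310. Slc12a3, a salt cotransporter of the distal tubule, was at 1.33, 3.06, 4.22 and 0.268, in the same order as the distal convoluted tubule markers, of which it is 1. Its median ratio elsewhere was 2.15.

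The library labelled Klf4deltaECNos3-/- had the fewest nuclei. Of 4720 genes, 146 were higher (3.09%) and 206 lower (4.36%), together 7.46%, against 309 genes for the library labelled Nos3-/-. That order was not stable, since with 0.5 added the counts were 73 and 78. Of these 352 genes, 24 moved the same way by at least 0.5 in the median of the other clusters. The smooth muscle markers Acta2 and Myh11, with Adamtsl1 and Corin, were higher by at least 2-fold, and 5 matrix glycoproteins, 3 collagen chains and the fibroblast receptor Pdgfra were lower. The summed smooth muscle markers were at 5.45, 6.69, 8.49 and 10.7, highest in this library. The summed fibroblast markers were at 5.52, 4.14, 2.81 and 3.31, lowest in the library labelled Nos3-/-. The contractile and actomyosin genes summed to 50.3 in the control and 50.7 in the library labelled Klf4deltaECNos3-/-. Collagen chains summed to 37.5 and 36.6 in these libraries, and matrix glycoproteins and proteoglycans to 31.4 and 19.7. The part of the balance between smooth muscle and fibroblast markers in the differences below was not tested.

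Acta2 (chromosome 19, 34241090 to 34255590, minus strand) was at 0.711 (0.457 to 1.06), 0.382 (0.238 to 0.581), 1.02 (0.753 to 1.36) and 2.67 (2.03 to 3.45), a log2 ratio of 1.77 (1.21 to 2.66) over the control. Myh11 was at 1.24 (0.890 to 1.67), 1.94 (1.59 to 2.34), 2.31 (1.90 to 2.79) and 3.30 (2.59 to 4.16), a log2 ratio of 1.35 (0.85 to 2.00). Both were highest in the library labelled Klf4deltaECNos3-/-. The 6 smooth muscle markers that entered all lay above 0, with a median of 0.73 against −0.02 elsewhere, and Acta2 and Myh11 passed 2-fold. Myocd (myocardin), the coactivator of smooth muscle genes, was at 0.578, 0.546, 0.928 and 1.16, and Tagln (transgelin) at 0.864, 1.65, 1.38 and 1.32. Trpc6, a receptor-operated calcium channel, was at 0.279, 0.433, 0.674 and 1.30, and Mcam, an adhesion molecule of mural cells, at 0.335, 0.393, 0.260 and 1.33. Mcam was the 1 pericyte marker past 2-fold, and of the 6 that entered 3 lay above 0 and 3 below, with a median of −0.13. Not every contractile gene followed, since Mylk (myosin light chain kinase) was at 9.90, 10.6, 8.96 and 6.35 and Cald1 (caldesmon) at 9.70, 12.3, 13.9 and 6.25. Over the 20 contractile and actomyosin genes, 15 entered, 9 above 0 and 6 below, with a median of 0.06.

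Adamtsl1, one of the 4 markers of the working name, lies on chromosome 4 (85514172 to 86428385, plus strand). Its intervals were 5.94 to 7.72, 3.52 to 4.59, 2.82 to 3.89 and 20.4 to 24.4, and the log2 ratio in the library labelled Klf4deltaECNos3-/- was 1.70 (1.49 to 1.95) over the control. The median ratio in the other clusters was 0.00. In cluster 10, the next highest, Adamtsl1 was at 1.38, 0.419, 0.817 and 2.31. Corin, the protease that activates atrial natriuretic peptide, was at 0.156 (0.0527 to 0.355), 0.197 (0.0984 to 0.351), 0.0745 (0.0179 to 0.203) and 2.76 (2.11 to 3.55), a log2 ratio of 3.48 (2.88 to 5.76), the highest of the comparison. Corin was far higher in cluster 18, at 21.6, 3.45, 2.55 and 16.1, where the control was not the low library. 6530403H02Rik, a gene of no known function, was at 0.843, 0.272, 0.657 and 3.09.

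Several matrix genes were lower in the same library. Of 27 matrix glycoproteins and proteoglycans, 16 entered, 11 lay below 0 and 5 of these were lower by at least 2-fold, namely Fbn1, Lama2, Sparc, Fbln5 and Egflam. The median was −0.49, against −0.07 in the other clusters. Of 23 collagen chains, 14 entered, 6 above 0 and 8 below, with a median of −0.42. Col5a2, Col8a1 and Col14a1 were lower by at least 2-fold. Col14a1, a fibril-associated collagen, was at 1.97 (1.53 to 2.50), 2.49 (2.09 to 2.93), 1.58 (1.24 to 1.99) and 0.541 (0.278 to 0.947). Fbn1 (fibrillin-1) was at 1.82, 1.62, 1.54 and 0.604, and Fbln5 (fibulin-5), which helps assemble elastic fibres, at 4.80, 2.65, 3.29 and 2.09. Among collagen IV chains of basement membranes, Col4a1 was at 6.27, 6.67, 7.92 and 6.60. Col4a3 was at 6.95, 4.24, 5.69 and 10.2, a log2 ratio of 0.55 (0.29 to 0.83) over the control. Col4a4 was at 5.22, 3.34, 3.70 and 6.17. Pdgfra was lower too, with a log2 ratio of −1.56 (−2.60 to −0.87). It was the 1 fibroblast marker past 2-fold. Of the 9 fibroblast markers measured, 4 entered, 1 lay above 0 and 3 below, with a median of −0.34.

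**Figure D4:**
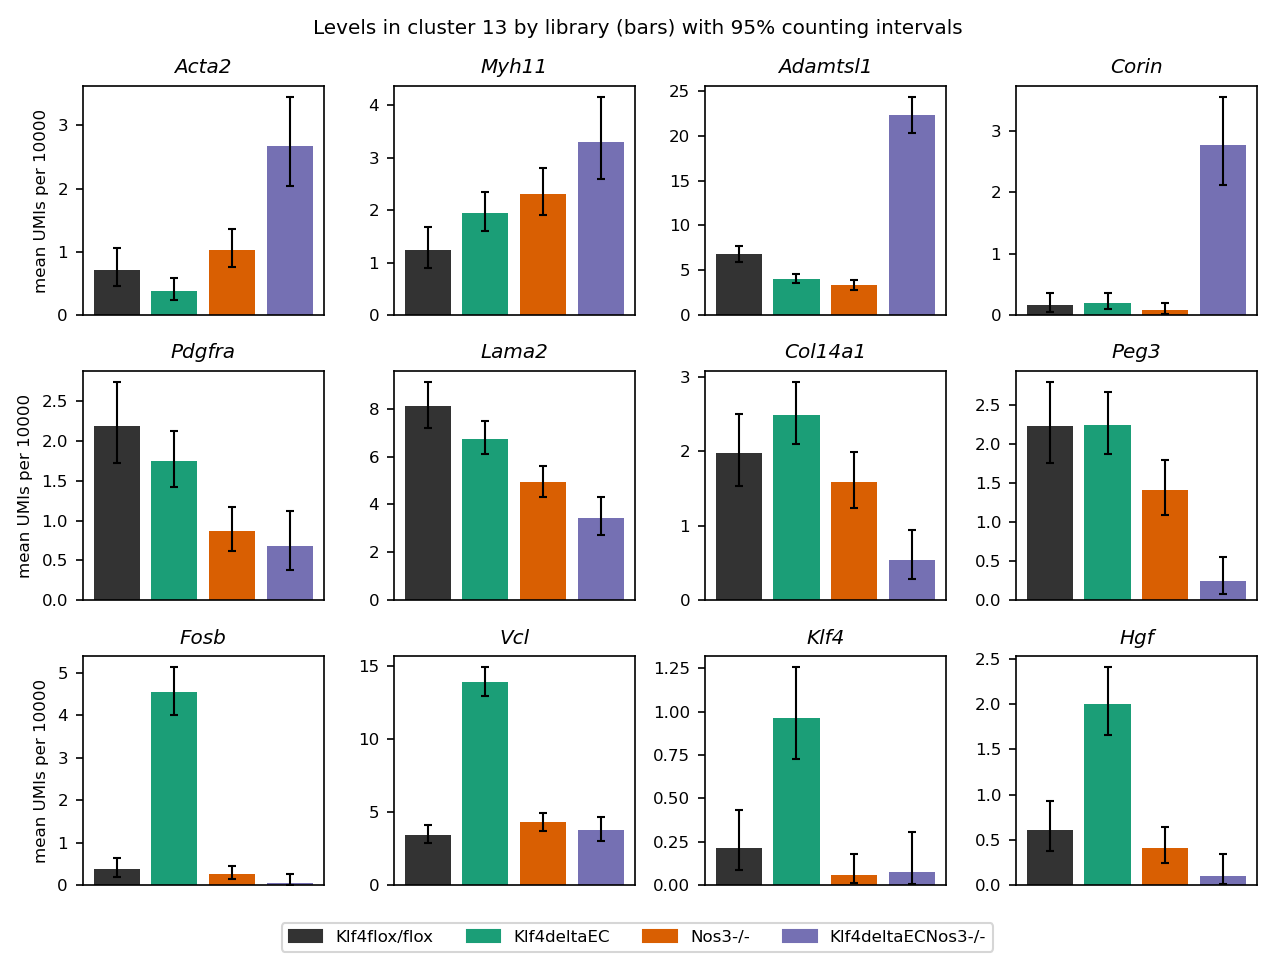
Level in cluster 13 (y axes, mean UMIs per 10000) of 12 genes in each library (bars), with lines for the 95% counting interval. Acta2, Myh11, Adamtsl1 and Corin are highest in the library labelled Klf4deltaECNos3-/-, Pdgfra, Lama2, Col14a1 and Peg3 are lowest in it, and Fosb, Vcl, Klf4 and Hgf are highest in that labelled Klf4deltaEC.

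Among the lowest ratios in the library labelled Klf4deltaECNos3-/-, some genes were low in that library alone and others also in that labelled Klf4deltaEC. Ntng1, a netrin-related adhesion protein, was at 1.34, 0.546, 1.16 and 0.127, and Adamtsl2, a matrix glycoprotein, at 1.26, 0.485, 0.831 and 0.177. Both were lower than in the control by at least 2-fold in the libraries labelled Klf4deltaEC and Klf4deltaECNos3-/-. Peg3, an imprinted zinc-finger gene, was at 2.24 (1.77 to 2.80), 2.25 (1.87 to 2.67), 1.42 (1.10 to 1.80) and 0.243 (0.0829 to 0.554), with a log2 ratio of −2.77 (−4.80 to −1.95). Slc24a3, a sodium, potassium and calcium exchanger, was at 1.43, 2.45, 1.31 and 0.173. Fam19a1, a secreted chemokine-like protein, was at 1.93, 3.06, 1.70 and 0.273. In the median of the other clusters the ratios of Peg3, Slc24a3 and Fam19a1 were −0.13, 0.00 and 0.01. Robo2, a receptor for Slit guidance cues, was at 13.6, 15.4, 7.26 and 5.91, low in both libraries labelled Nos3-/- and Klf4deltaECNos3-/-. Of the 24 neuronal adhesion and guidance genes, 18 entered, 6 were lower by at least 2-fold and Negr1 was higher (3.03, 4.81, 3.26 and 6.68).

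**Figure D5:**
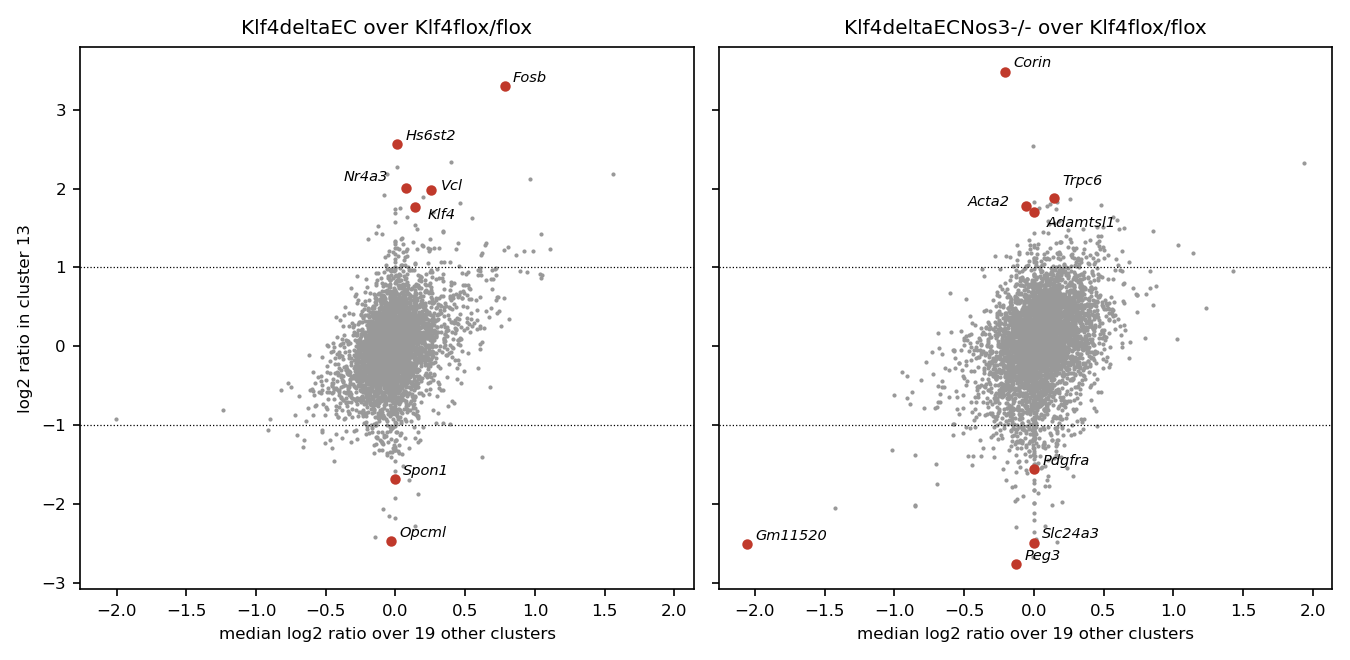
Log2 ratio over the control in cluster 13 (y axis) against the median ratio over 19 other clusters (x axis) for each gene that entered, in the libraries labelled Klf4deltaEC and Klf4deltaECNos3-/-, with dotted lines at 2-fold. Fosb (3.30 and 0.78), Vcl (1.98 and 0.25) and Adamtsl1 (1.70 and 0.00) lie well above the cloud along the y axis.

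The library labelled Klf4deltaECNos3-/- was next set against that labelled Nos3-/-, 2 libraries that share the Nos3-/- label and differ in the endothelial Klf4 label. Of 4671 genes, 274 were higher (5.87%) and 154 lower (3.30%), together 9.16%, and 184 of these 428 moved the same way by at least 0.5 elsewhere. Adamtsl1 had a log2 ratio of 2.71 (2.48 to 3.02) against −0.22 elsewhere, Acta2 one of 1.31 (0.81 to 1.97) and Mcam one of 1.99 (1.34 to 3.45). The lists they belong to did not follow as a whole, with 3 smooth muscle markers above 0 and 3 below (median 0.12), and 2 pericyte markers above and 3 below (median −0.49). Fat3, a giant cadherin, was at 0.284, 0.111, 0.173 and 1.14. Cycs, Ubb and Mettl23 were also higher, and their ratios elsewhere were 1.34, 2.46 and 2.68. Of the immediate early genes, Jun, Junb, Zfp36 and Btg2 were higher by at least 2-fold, with a list median of 1.01 against 0.60 elsewhere. Of the collagen chains, Col5a2 and Col14a1 were lower by at least 2-fold, and Col14a1 had a log2 ratio of −1.39 (−2.57 to −0.66). Cald1 and Smad3, a mediator of TGF-beta signals, were lower as well, and Smad3 was at 1.97, 1.98, 3.66 and 1.52.

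Against the library labelled Klf4deltaEC, from which it differs in the Nos3-/- label, 167 of 4711 genes were higher (3.54%) and 192 lower (4.08%), together 7.62%, and 43 of these 359 moved the same way elsewhere. This comparison and the one before share the library labelled Klf4deltaECNos3-/-. The genes that stood out in the library labelled Klf4deltaEC returned here with the opposite sign, since that library is the denominator. Fosb, at 4.55 and 0.0455, was below the level of 3 counts in the library with both labels, and Vcl had a log2 ratio of −1.85 (−2.22 to −1.55). Of the nitric oxide and cGMP genes, 8 of 16 entered, 6 lay below 0 with a median of −0.76 against 0.00 elsewhere, Gucy1a2, Gucy1b1 and Pde3a were lower by at least 2-fold and Prkg2 was higher. Gucy1a2 had a log2 ratio of −1.57 (−2.00 to −1.22). Lhfpl3, a tetraspan membrane protein, was at 0.570, 0.106, 0.288 and 1.09, and Bcl6, a transcriptional repressor, at 1.56, 0.660, 1.61 and 3.14, with a ratio of 1.30 elsewhere.

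Taking each library against the other 3 at once gave the genes that differed from each other library. Of 5125 genes that reached 0.5 in any library, the library labelled Klf4flox/flox was above all 3 others by at least 2-fold in 20 (0.39%) and below them in 5 (0.0976%). That labelled Klf4deltaEC was above in 27 (0.527%) and below in 4 (0.078%), that labelled Nos3-/- above in 10 (0.195%) and below in 88 (1.72%), and that labelled Klf4deltaECNos3-/- above in 36 (0.702%) and below in 49 (0.956%). Genes above all others in the control library included Aldh1a1, a retinaldehyde dehydrogenase (0.801, 0.181, 0.0596 and 0.124), Gfpt2, an enzyme of the hexosamine pathway (0.519, 0.0362, 0.00919 and 0.0561), and Rad51b, a DNA repair protein (2.39, 0.897, 0.371 and 0.412). In the library labelled Nos3-/- they included Hoxc4, a homeobox factor (0.455, 0.570, 1.42 and 0.540), and Fblim1, a filamin-binding adhesion protein (0.316, 0.317, 0.860 and 0.280).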

How the data were processed

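Single-nucleus RNA libraries of mouse kidney cortex were made with the 10X Chromium system, per the labels' protocols. Cell Ranger, Seurat and the mm10 build are named in the submitters' processing notes, without versions. The authors deposited a normalized signal for 21046 genes in 92 columns, 23 clusters in each of 4 libraries, and every column sums to 10000. Clustering is the authors'; the sources used here do not say how doublets were treated. The values are cluster averages, so barcodes shared between libraries could not be counted.

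Nuclei numbers and UMI totals were inferred from the reciprocals of the lowest values, which share the nuclei number as a divisor. At least 92.6% of them were divided by the number taken, within a relative tolerance of 3e-14. Distinct totals found numbered 153, 185, 219 and 85, the last 1 above the 84 nuclei inferred there, so these figures are approximate. Effective UMIs from the harmonic mean of the totals gave the 95% counting intervals. Ratios are log2 with a pseudocount of 0.1 for genes reaching 0.5 in the higher library; intervals hold no pseudocount, so a ratio can lie off their centre. No test was run, because each genotype had 1 library. The ratio elsewhere is the median over 19 other clusters, numbered under 20.

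Named genes were the 25 leading ones, the 15 of highest level, the 10 highest and 10 lowest ratios of each comparison, the 6 furthest above and below all other libraries, Klf4, Nos3, the label markers, and members of the gene lists of high level or large ratio. The cluster and the lists were chosen with earlier results of these data known. Some genes that this rule names are not reported here. The procedure was tested on simulated data. The settings and result of that test are not given here. It therefore does not show how well the counting intervals hold at the wide depth spread of the cluster. Gene positions came from GENCODE M21 and promoters from RefSeq. Python 3.11.15, pandas 2.3.3, numpy 2.4.6, scipy 1.17.1 and matplotlib 3.10.9 were used. Alternatives changed the pseudocount, the entry level, the scaling and the libraries used.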

Additional observations from a re-analysis of the deposited data

Results flagged for a closer look

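For 6 of the genes reported here, the library labelled Klf4deltaEC lay at least 2-fold to one side of the control. The library with both labels lay at least 2-fold to the other side of the one labelled Nos3-/-. These 2 ratios share no library. With 1 library each, the difference was not tested. The value given is the first log2 ratio minus the second. It was 4.70 for Slc12a3 (1.15 and −3.55), a distal convoluted tubule gene whose ratios in the other clusters were 0.02 and −2.37. For Ak5, an adenylate kinase, it was 2.60 (1.03 and −1.57). For the matrix genes Spon1 and Dcn it was −3.50 (−1.69 and 1.81) and −2.85 (−1.58 and 1.27). For 6530403H02Rik it was −3.42 (−1.34 and 2.07), and for Lhfpl3 −3.32 (−1.70 and 1.62). Among all genes, named or not, 20 passed 2-fold in opposite directions and 9 in the same direction.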

How the results depend on the processing

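Counts of genes past 2-fold depended on how low levels were treated. In the order Klf4deltaEC, Nos3-/- and Klf4deltaECNos3-/- over the control, then the last over Nos3-/- and over Klf4deltaEC, the counts of 184, 309, 352, 428 and 359 became 35, 78, 73, 103 and 109 with a pseudocount of 0.5, 33, 64, 65, 76 and 87 with an entry level of 2, and 625, 973, 1040, 1182 and 951 with no entry level. For Klf4deltaEC over the control the split of 86 higher and 98 lower turned to 26 and 9 with a pseudocount of 0.5 and to 22 and 11 with an entry level of 2. With a pseudocount of 0.02 the first count became 279. Median-ratio rescaling and leaving out mitochondrial and proximal tubule genes kept the 5 counts within 1.5 times, as did subtracting the median of the other clusters, which moved the split of higher to lower genes to 26 and 224 for Nos3-/- over the control, 286 and 88 for the fourth comparison and 102 and 183 for the fifth. The count of 65 leading genes became 259 over the mean of the other clusters and was 62 to 74 without 1 library. The lead of the pericyte over the smooth muscle list was 0.371, turned to −0.601 without scaling and ranged from −0.444 to 0.375 without 1 library, negative without the library labelled Klf4deltaEC. Depth limits levels under the 3-count level, most in the library labelled Klf4deltaECNos3-/- with 84 nuclei. No paired analysis was possible because each genotype had 1 library.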

Other observations

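Integrins and the TGF-beta pathway had few members past 2-fold in cluster 13. Of 16 integrin genes, 9 entered each comparison with the control and none passed 2-fold there, with medians of 0.01, 0.17 and 0.05. In the library labelled Klf4deltaECNos3-/-, Itga9 (2.63, 4.05, 3.35 and 1.46) was lower by at least 2-fold than in those labelled Nos3-/- and Klf4deltaEC, and Itga6 (1.16, 0.579, 1.01 and 1.32) was higher than in the latter. Itga1, a collagen-binding subunit, was at 3.83, 4.72, 4.97 and 2.72, and Itgb1, the shared beta-1 subunit, at 2.79, 3.77, 2.26 and 2.90. Of 19 genes of the TGF-beta pathway, 13 or 14 entered, and Tgfb2 was the 1 gene past 2-fold in the comparisons with the control. Smad3 was lower by at least 2-fold in the library labelled Klf4deltaECNos3-/- than in that labelled Nos3-/-. Ednra, the endothelin-A receptor, was at 0.434, 0.465, 0.666 and 0.497, and was highest in cluster 13 among all clusters.

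Genes of developmental patterning were also present. Tshz2, a zinc-finger factor, was at 20.3 (18.8 to 21.8), 20.0 (18.9 to 21.2), 22.9 (21.5 to 24.3) and 10.9 (9.58 to 12.4), lowest in the library labelled Klf4deltaECNos3-/-. Prrx1, a homeobox factor of mesenchyme, was at 0.618, 0.440, 0.297 and 0.970, and Gli3, a mediator of hedgehog signals, at 0.377, 0.228, 0.295 and 0.836. Ebf1 was at 11.7, 14.7, 14.4 and 10.0, below its level in cluster 10. Slit3, a guidance ligand, was at 6.46, 4.86, 7.30 and 8.87.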
